A study of Homo sapiens and Mus musculus with 8 samples.

Results

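The results below compare 2 xenograft tumors of KM12, a human colorectal cancer cell line, 1 tumor from parental cells and 1 from cells with the GNAS gene knocked out. A xenograft here is a cell line-derived tumor (CDX), grown in a mouse from human cells. The parental tumor is labelled with the genotype GNAS R201H and the other tumor with GNAS knockout, both carry no treatment, and each is 1 RNA sequencing library. Genes were taken into the description when they reached 5 CPM (a gene's count scaled to a common library total) in either tumor, which gave 11533 genes of the 60483 in the table, 10831 of them protein-coding. They hold 98.9% of the counts of the parental tumor and 99.0% of those of the knockout tumor. The same 2 states of KM12 grown in culture, and 2 xenografts of the colorectal line LS174T labelled GNAS R201H with Dox (+) or Dox (-), serve as comparisons, again 1 library each. The sources used here do not give the mouse strain or age, the site of injection, the number of animals, the number of clones behind the knockout line or what Dox induces in LS174T.

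The product of GNAS is the alpha subunit of Gs, the G protein that stimulates cAMP production. Receptors that couple to Gs load this subunit with GTP, and it then activates adenylyl cyclase, which makes cAMP. Cyclic AMP releases the catalytic subunits of protein kinase A (PKA) from their regulatory subunits, and PKA phosphorylates the transcription factor CREB. The R201H substitution slows the hydrolysis of GTP and keeps the subunit active, and such mutations are known from mucin-producing tumors of the gut and pancreas. The title of the series asks whether tumors with this mutation depend on GNAS.

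The parental tumor gave 15924846 counts and the knockout tumor 18662450, so 5 CPM corresponds to 87 and 103 counts. With 1 library a side there is no replicate spread and no test: every ratio is a description of these 2 tumors, and its 95% interval (exact, conditional on the total count of the gene) covers counting error only, since reads without molecular identifiers are not independent molecules. Genotype cannot be told apart from any other difference between the 2 tumors or the 2 cell populations they came from. In bulk tissue, fewer cells of a type and less RNA per cell cannot be told apart either. At the lower edge of the description, ARHGEF26 (5.03 CPM in the parental tumor, 4.12 in the knockout) and LINC01116 (5.03 and 3.34) were just inside, and OAS2 (1.60 and 4.99) and MNX1-AS1 (2.46 and 4.99) were just outside.

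GNAS itself (ENSG00000087460.22, GRCh38 chr20:58839718-58911192) stood at 1387 CPM in the parental tumor and 901 CPM in the knockout tumor. The parental level was 1.54-fold the knockout level (interval 1.51 to 1.57). In culture the parental cells had 1117 CPM and the knockout cells 297 CPM. The parental library was higher in both settings, and the gap was narrower in the tumors, where the knockout level was above that of the knockout culture. A count over the whole gene takes mutant, wild-type and edited transcripts together, and the part of mouse reads in the tumor value was not tested.

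The 2 tumors differed at many genes and by large ratios. At least 2-fold higher CPM was found in the parental tumor for 501 genes (4.34% of the 11533) and in the knockout tumor for 525 genes (4.55%). These 2 shares belong beside every list count below, and a list count near them is no result about that list. A gene under 5 CPM in 1 tumor passed the filter through the other tumor alone, which fixes its direction. Ratios of at least 8-fold were found for 64 genes (0.555%) toward the parental and 57 (0.494%) toward the knockout tumor. A log2 ratio above 0 was found for 51.9% of the genes, against 50.6% in the KM12 culture pair and 51.6% in the LS174T pair, so the middle of the distribution was centered, with a median log2 ratio of 0.02 in the tumors (parental over knockout, as in all KM12 log2 ratios here) and 5th and 95th percentiles of -0.95 and 0.93. None of these 1026 genes at 2-fold (8.90%) had a counting interval that included 1. This follows from the filter: with 87 or 103 counts in 1 tumor, a 2-fold ratio keeps its interval clear of 1. In the KM12 culture pair 57 of 10911 genes (0.522%) were 2-fold apart, 26 toward parental (0.238%) and 31 toward knockout (0.284%), and 0 (0.00%) were 8-fold apart, with 5th and 95th percentiles of -0.34 and 0.28. In the LS174T xenograft pair 504 of 11657 genes (4.32%) were 2-fold apart, 167 toward Dox (+) (1.43%) and 337 toward Dox (-) (2.89%), and 20 (0.172%) and 1 (0.00858%) were 8-fold apart.

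**Figure D1:**
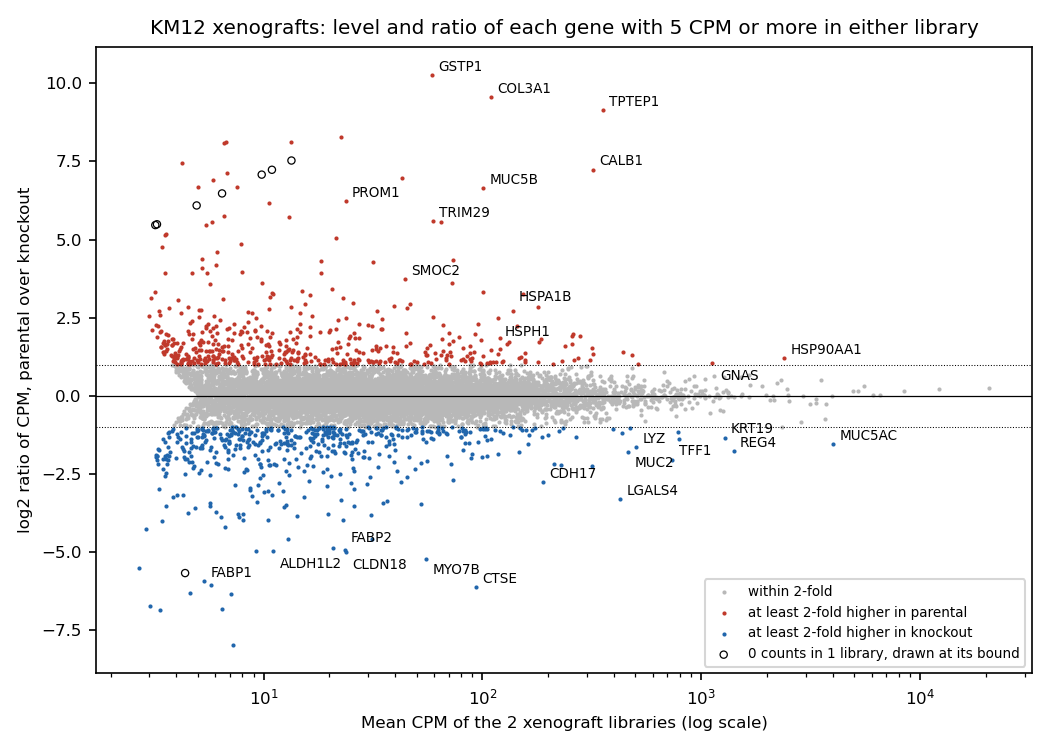
Each point is a gene with 5 CPM or more in either KM12 xenograft: the horizontal axis is its mean CPM on a log scale, the vertical axis its log2 ratio of parental over knockout CPM, red and blue mark ratios of at least 2-fold and open circles genes with 0 counts in 1 library, drawn at a bound from 3 counts. GSTP1, COL3A1 and CALB1 lie at the top, CTSE and MYO7B at the bottom, and GNAS is within 2-fold.

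Genes of the absorptive enterocyte, the cell that takes up nutrients across a brush border of microvilli, were lower in the parental and higher in the knockout tumor. Of 36 listed enterocyte genes 21 reached 5 CPM, and of these 14 were at least 2-fold higher in the knockout tumor and 1 in the parental tumor, with a median log2 ratio of -2.40 against 0.02 over all genes described. Another 13 of the 36 were below 1 CPM in both tumors, among them ALPI, APOA4, APOB, CA1 and CA4 with 0 counts. The gene farthest apart was MEP1A, a brush border protease, with 1 count in the parental and 124 counts in the knockout tumor, a ratio of 105 (18.5 to 4180). Genes that build the brush border were among those toward the knockout. MYO7B, a motor at microvillus tips, had 2.86 CPM in the parental and 107.8 CPM in the knockout tumor, 37.7-fold apart (28.5 to 51.0). CDHR2, a cadherin that links microvillus tips, had 24 and 826 counts, 29.1-fold apart (19.5 to 45.8). USH1C, the scaffold of that tip complex, had 12.9 and 78.0 CPM. All 3 are parts of one complex, and each was at least 6.06-fold higher in the knockout tumor. MEP1A, MYO7B and CDHR2, and FABP1 and FABP2 below, were under 5 CPM in the parental tumor. They passed the filter through the knockout tumor alone, which fixes their direction, while USH1C passed in both tumors. The count of 14 and the list median include such genes. The same filter held for all genes described, of which 4.55% were 2-fold higher in the knockout tumor.

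The fatty acid binding proteins of the enterocyte followed the same direction. FABP1 had 3 counts in the parental tumor (0.172 CPM) and 10.6 CPM in the knockout tumor, a ratio of 61.5 with a wide interval of 20.8 to 301. FABP2 had 1.49 and 45.5 CPM, 30.6-fold apart (20.7 to 47.1). The lectin LGALS4, the most abundant gene of the list in the knockout tumor but not in the parental tumor, rested on far more counts, with 78.1 CPM against 772.9 CPM, 9.89-fold apart (9.36 to 10.5). HEPH, a copper enzyme that oxidizes iron leaving the enterocyte, is not on that list and had 2.52 and 60.4 CPM. It passed the filter through the knockout tumor alone. MGAM, also off that list, had 5.09 and 4.31 CPM. The exception on the list was CA2, a carbonic anhydrase, at 82.3 CPM in the parental and 10.7 CPM in the knockout tumor, and 6 members lay within 2-fold, among them EPS8 (140.0 and 140.2 CPM) and TSPAN8 (220.6 and 252.9 CPM). In culture the same 21 genes had a median log2 ratio of -0.38, also toward the knockout. In the LS174T xenografts it was -0.67, toward Dox (-).

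Single genes outside that list were also far apart. CTSE, the protease cathepsin E of gastric surface cells, had 2.63 CPM in the parental and 184.7 CPM in the knockout tumor, the largest lower bound of any protein-coding gene in that direction (70.2-fold, 52.5 to 96.1, GRCh38 chr1:206009264-206023909). CLDN18, a claudin best known from stomach, had 1.43 and 46.2 CPM, against 0.206 and 0.205 CPM in the 2 KM12 cultures. Of 36 claudin and junction genes 6 were 2-fold higher in the knockout tumor, CLDN2 (0.744 and 8.96 CPM) next after CLDN18, and 1 in the parental tumor, CLDN3 (85.3 and 38.0 CPM), while 29 were within 2-fold and the median was -0.10. EPCAM (571 and 516.5 CPM) and CLDN4 (188.7 and 186.7 CPM) were nearly level. KCNQ1, a potassium channel of gut and stomach epithelium, had 0.973 and 15.2 CPM, on a list of fluid secretion genes with 4 of 21 members 2-fold higher in each tumor. KRT7, a simple-epithelium keratin, had 77.3 and 349.5 CPM.

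Transcription factors of the gut lineage were closer together than these effector genes. Of 21 members 2 were 2-fold higher in the knockout tumor and 1 in the parental tumor, with a median log2 ratio of -0.28. The shares over all genes described were 4.55% and 4.34%, so these counts are no result about the list. CDX1, a homeobox factor of intestinal identity, had 10.9 CPM in the parental and 74.1 CPM in the knockout tumor, while both cultures (73.7 and 96.6 CPM) were near the knockout tumor. Its relative CDX2 had 34.3 and 51.2 CPM, and HNF4A, a factor of enterocyte genes, 136.7 and 160.4 CPM. The homeobox gene HOXB9, 1 of the list, went the other way with 23.3 and 3.25 CPM.

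HOXB9 was not alone, a pattern looked up after its value was seen. HOX genes encode homeobox factors that set position along the body axis and sit in 4 clusters. In the HOXB cluster 7 genes reached 5 CPM and 6 were at least 2-fold higher in the parental tumor, with a median log2 ratio of 2.85. HOXB6 had 69.2 CPM in the parental and 9.54 CPM in the knockout tumor, HOXB5 had 45.5 and 5.86 CPM, and HOXB8 had 25.6 and 0.484 CPM. HOXB8 and HOXB9 were under 5 CPM in the knockout tumor and passed the filter through the parental tumor alone, which fixes their direction. HOXB5 and HOXB6 passed in both tumors. The count of 6 and the median include such genes, and 4.34% of all genes described were 2-fold higher in the parental tumor. In the HOXA cluster 3 of 10 and in the HOXC cluster 2 of 3 were 2-fold higher in the parental tumor, and in the HOXD cluster 0 of 3. The KM12 cultures had 0.549 CPM of HOXB8 or less and 2.57 CPM of HOXB6 or less, so the parental tumor stood above both cultures. For HOXB6 the knockout tumor, at 9.54 CPM, was above both cultures as well.

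Mucin and goblet cell genes, which make the mucus layer, were mostly higher in the knockout tumor. Of 27 members 11 were at least 2-fold higher there and 3 in the parental tumor, with a median log2 ratio of -0.79. MUC5AC, the gel-forming mucin of the stomach surface, was the gene with the largest difference in CPM toward the knockout: 2047 CPM in the parental and 5967 CPM in the knockout tumor, 2.92-fold apart (2.88 to 2.95). The intestinal gel-forming mucin MUC2 had 205.0 and 721.5 CPM, and the trefoil peptide TFF1, secreted along with gastric mucin, 288.5 and 1188 CPM. REG4, a secreted lectin, had 634.4 and 2182 CPM. The whole list summed to 7404 CPM in the parental tumor and 17440 CPM in the knockout tumor.

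The 3 members at least 2-fold higher in the parental tumor were all mucins. MUC5B, a gel-forming mucin that lies on chromosome 11 beside MUC5AC, had 199.5 CPM in the parental tumor and 1.99 CPM in the knockout tumor, 100.4-fold apart (73.9 to 140). In culture MUC5B had 69.4 and 13.5 CPM, so the knockout was lower in both settings. The other members above 2-fold in the parental tumor were MUC4, a membrane mucin, with 10.4 and 0.678 CPM, and MUC6, a mucin of gastric glands, with 9.27 and 1.89 CPM. MUC5B, MUC4 and MUC6 were all under 5 CPM in the knockout tumor. They passed the filter through the parental tumor alone, which fixes their direction in the tumors. In culture the 27 genes ran the other way as a list, with a median log2 ratio of 0.60 and 9 members 2-fold higher in parental cells against 1 in knockout cells.

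**Figure D2:**
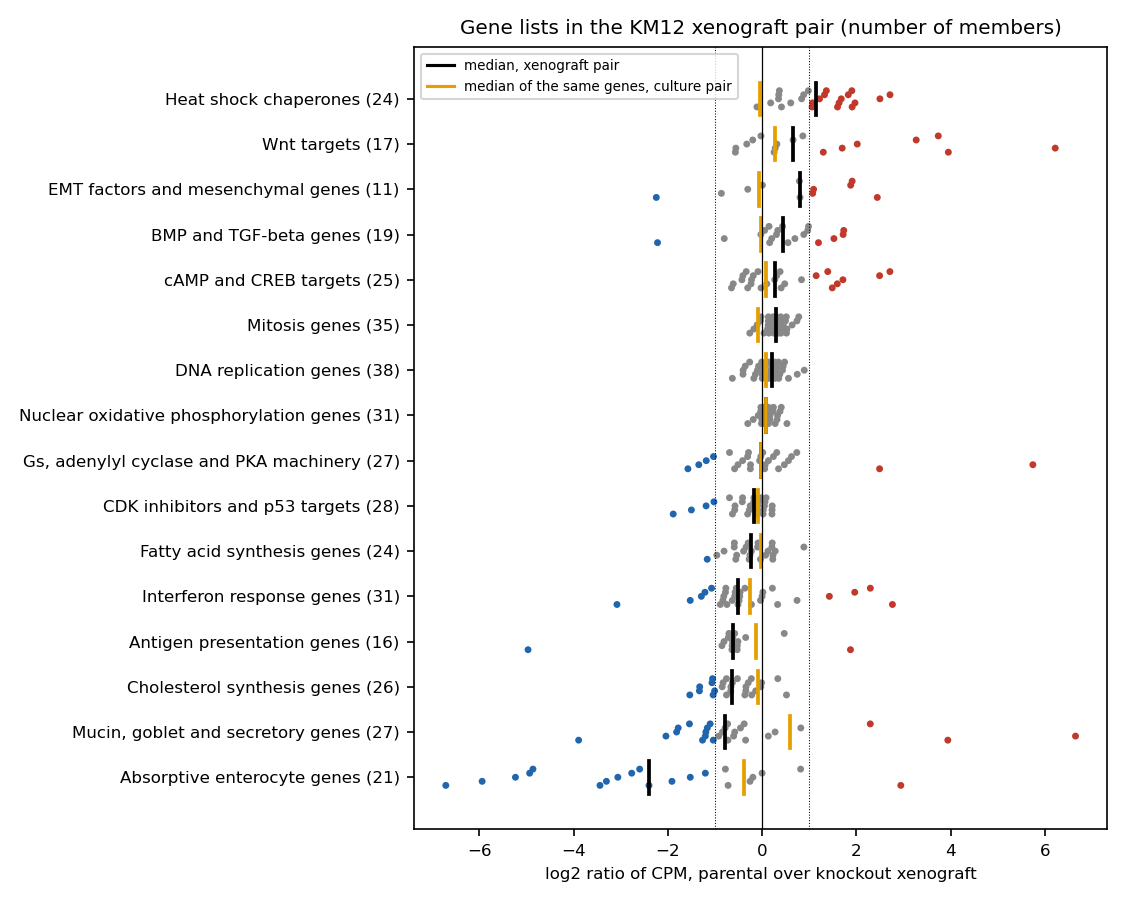
Each point is a gene of the list named at the left, placed by its log2 ratio of parental over knockout CPM in the xenografts, with the number of members in brackets, red and blue for ratios of at least 2-fold, a black bar for the xenograft median and an orange bar for the median of the same genes in culture. Heat shock chaperones have the highest median (1.14) and absorptive enterocyte genes the lowest (-2.40), and of the lists plotted the mucin list has its culture median (0.60) farthest on the other side of 0.

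Wnt targets, the genes of the crypt base where intestinal stem cells reside, were higher in the parental tumor. Of 17 members 7 were at least 2-fold higher there and 0 in the knockout tumor, with a median log2 ratio of 0.66. LGR5, the receptor that marks crypt stem cells, had 72.0 CPM in the parental and 17.8 CPM in the knockout tumor, 4.05-fold apart (3.60 to 4.56). ASCL2, a transcription factor of those cells, had 20.1 and 2.08 CPM, and SMOC2, a matrix protein of the crypt base, 82.0 and 6.15 CPM. PROM1, which encodes the surface protein CD133, was furthest apart with 46.9 and 0.630 CPM. ASCL2 and PROM1 were under 5 CPM in the knockout tumor, so the filter fixes their direction. The more general targets of the pathway were within 2-fold: AXIN2 had 11.3 and 9.35 CPM, RNF43 49.8 and 41.8 CPM, and LEF1 16.1 and 16.4 CPM. In culture the list's median was 0.27, with 1 member 2-fold higher in parental cells.

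In the pathway of GNAS most genes of the machinery were within 2-fold. Of 27 genes for G protein subunits, adenylyl cyclases, phosphodiesterases and PKA, 2 were 2-fold higher in the parental tumor and 4 in the knockout tumor, with a median log2 ratio of -0.03. Over all genes described the shares were 4.34% and 4.55%. PRKAR2B, a regulatory subunit of PKA, had 13.0 CPM in the parental tumor and 5 counts, or 0.242 CPM, in the knockout tumor. The cultures had 6.52 and 5.70 CPM of PRKAR2B, so the knockout tumor was the library that stood apart. PDE4B, a phosphodiesterase that degrades cAMP and is itself induced by it, had 40.3 and 7.17 CPM, 5.63-fold apart (4.71 to 6.76). The 4 genes at least 2-fold higher in the knockout tumor were the PKA inhibitor PKIB (4.29 and 12.8 CPM), the catalytic subunit PRKACB (3.60 and 9.16 CPM), PDE4C (6.06 and 13.8 CPM) and the cyclase ADCY7 (13.8 and 28.3 CPM). The main catalytic subunit PRKACA was level at 61.9 and 61.3 CPM.

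Among known cAMP and CREB targets 7 of 25 were at least 2-fold higher in the parental tumor and 0 in the knockout tumor, with a median log2 ratio of 0.27. PTGS2, the inducible cyclooxygenase of prostaglandin synthesis, had 57.1 CPM in the parental and 8.72 CPM in the knockout tumor, 6.55-fold apart (5.58 to 7.72). NR4A1, an immediate early nuclear receptor, had 177.2 and 63.2 CPM, and RGS2, a brake on G protein signals, 48.9 and 16.2 CPM. PCK1, the gluconeogenic enzyme, had 21.2 and 9.59 CPM. Of the wider list of immediate early genes, 2 of 21 were 2-fold higher in the parental tumor (FOSB, 19.5 and 7.41 CPM, and DUSP2, 13.8 and 6.30 CPM) and 1 in the knockout tumor (BTG2), with a median of -0.28. The shares over all genes described were 4.34% and 4.55%. Members within 2-fold include the best known ones: FOS had 126.0 and 147.4 CPM, EGR1 85.6 and 97.6 CPM, and DUSP1 14.6 and 10.5 CPM. PTGS2, PDE4B, PCK1 and NR4A1 were higher in the parental library in culture too (PTGS2 6.62 and 2.81 CPM, PDE4B 3.05 and 0.175 CPM), whereas RGS2 was lower there (30.7 and 50.5 CPM). In the LS174T xenografts the same 25 genes had a median log2 ratio of -0.30, Dox (+) over Dox (-), with 5 of them 2-fold higher in Dox (-) and 1 in Dox (+).

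Heat shock chaperones, which refold damaged proteins and are induced together by heat shock factor HSF1, were the list with the highest median among those of 5 or more members other than the HOXB cluster. Of 24 members 14 were at least 2-fold higher in the parental tumor and 0 in the knockout tumor, with a median log2 ratio of 1.14, and 23 lay above 0. For 3 of the 14 the RefSeq promoter (GRCh38.p14, 250 bases up to the RefSeq start site, read on the strand of the gene) is printed, because the list moved together and these promoters hold a heat shock element, the site that HSF1 is known to bind. The element was searched as 3 GAA units in alternating orientation with 2 free bases between units, on both strands, in windows of 300 bases (250 before to 50 after the start), and capitals mark the matches. CHORDC1 is on the minus strand at chr11:90223050-90223299 and holds 3 overlapping matches, SERPINH1 on the plus strand at chr11:75562003-75562252, and HSP90AA1 on the minus strand at chr14:102087045-102087294.
CHORDC1: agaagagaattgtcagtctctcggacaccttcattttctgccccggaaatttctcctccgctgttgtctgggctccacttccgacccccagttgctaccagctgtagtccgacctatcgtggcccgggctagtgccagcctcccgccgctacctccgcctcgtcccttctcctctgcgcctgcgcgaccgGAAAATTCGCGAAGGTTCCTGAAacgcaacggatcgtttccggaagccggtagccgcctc
SERPINH1: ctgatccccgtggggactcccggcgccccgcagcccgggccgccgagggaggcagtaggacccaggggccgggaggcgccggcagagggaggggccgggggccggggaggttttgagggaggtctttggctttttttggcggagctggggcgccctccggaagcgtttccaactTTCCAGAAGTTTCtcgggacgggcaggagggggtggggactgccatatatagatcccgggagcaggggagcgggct
HSP90AA1: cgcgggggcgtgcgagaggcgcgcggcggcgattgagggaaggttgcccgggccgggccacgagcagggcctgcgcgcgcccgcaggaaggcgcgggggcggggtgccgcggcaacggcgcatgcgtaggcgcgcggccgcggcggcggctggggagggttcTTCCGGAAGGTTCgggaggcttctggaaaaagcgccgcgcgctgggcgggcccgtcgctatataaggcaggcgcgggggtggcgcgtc
The element occurs in 172 of 35116 RefSeq promoters of that length (0.49%) and in those of 8 of the 22 listed chaperones that had a promoter (36.4%). Counted by gene, 42 of the 9125 described genes with a promoter held it (0.46%). The 8 chaperones were CHORDC1, DNAJA1, DNAJB6, HSP90AA1, HSP90AB1, HSPA8, HSPD1 and SERPINH1. Of these, DNAJA1 (318.5 CPM in the parental and 173.1 CPM in the knockout tumor) and DNAJB6 (90.61 and 71.25 CPM) were within 2-fold. DNAJA1 lies within a stretch of chromosome 9 and DNAJB6 within a stretch of chromosome 7, both described further on. Without these 2 genes the list median was 1.27. HSPA1B and HSPH1, which were further apart than the 3 printed, were not among the 8. The sterol element was found in 1 of 19 cholesterol synthesis genes (5.26%) and in 1.49% of described genes, and the cAMP response element in 4 of 21 cAMP and CREB targets (19.0%) and in 3.93% of described genes. Of those 4, AREG, CREM, DUSP1 and VGF, 0 were 2-fold apart in the tumors. In CHORDC1 the matches end 37 bases before the start site, in SERPINH1 63 and in HSP90AA1 75. A match is a description of the sequence and not evidence that a factor bound there.

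CHORDC1, a partner of HSP90, had 147.6 CPM in the parental tumor and 37.7 CPM in the knockout tumor, 3.92-fold apart (3.62 to 4.25). SERPINH1, the collagen chaperone of the endoplasmic reticulum, had 289.2 and 81.5 CPM, 3.55-fold apart (3.36 to 3.75). HSP90AA1, the inducible HSP90, had 3333 and 1434 CPM, 2.32-fold apart (2.29 to 2.36), and was the nuclear gene with the largest CPM difference toward the parental tumor. The parental tumor was thus at the level of the 2 cultures for HSP90AA1 (3219 and 3449 CPM), and the knockout tumor below them. HSPA1B, an inducible HSP70 with a near-identical copy (HSPA1A) whose reads may be split between them, was furthest apart with 238.5 and 36.4 CPM. HSPH1, its exchange factor, had 200.1 and 35.4 CPM, and both cultures had 50.8 and 51.1 CPM, so here the parental tumor stood above culture.

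Other chaperone lists were within 2-fold throughout. The TRiC ring that folds actin and tubulin had a median of 0.35, with 0 of 8 members at 2-fold and CCT8 level at 253.1 and 257.3 CPM. The chaperones of the endoplasmic reticulum had a median of 0.06 with 0 of 22 at 2-fold, and HSPA5, their main member, had 976.4 and 706.8 CPM. That median changes sign under other scalings of the libraries. HSF1 itself had 199.5 and 154.9 CPM. The list of heat shock chaperones had a culture median of -0.04, and in the LS174T xenografts its median was 0.52 toward Dox (+), with 0 of its genes 2-fold apart.

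Cholesterol synthesis genes, which the factor SREBP2 controls as a group when sterols are low, were lower in the parental tumor. Of 26 members 24 had a log2 ratio below 0, 7 were at least 2-fold higher in the knockout tumor and 0 in the parental tumor, with a median of -0.65. HMGCS1, an early enzyme of the pathway, had 151.5 and 381.5 CPM, 2.52-fold apart (2.41 to 2.63). INSIG1, the sterol sensor's anchor, had 83.1 and 241.0 CPM but lies within a stretch of chromosome 7 described further on. Fatty acid synthesis genes had a median of -0.24, with ACSS2 the single gene of 24 at 2-fold (51.9 and 116.4 CPM) and FASN at 784.2 and 1030 CPM. Over all genes described 4.55% were 2-fold higher in the knockout tumor. In culture the cholesterol list had a median of -0.09, with 0 genes 2-fold apart.

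Proliferation genes differed by small ratios, mostly toward the parental tumor. Of 38 DNA replication genes and 35 mitosis genes 0 were 2-fold apart in either direction, with medians of 0.20 and 0.29. A log2 ratio above 0 was found for 28 of the 38 and 30 of the 35, against 51.9% of all genes described. MKI67, the common proliferation marker, went the other way, with 359.0 CPM in the parental and 405.8 CPM in the knockout tumor. MCM2, a helicase subunit, had 147.5 and 128.2 CPM, and CCNB1, the mitotic cyclin, 167.4 and 117.1 CPM. Cell cycle brakes and p53 targets had a median of -0.18, with 4 of 28 at 2-fold, all higher in the knockout tumor: CDKN1C (3.09 and 11.4 CPM), BTG2 (12.9 and 36.6 CPM), GDF15 (75.5 and 172.2 CPM) and CDKN1A, the p21 inhibitor (19.9 and 40.5 CPM). MYC had 124.3 and 68.3 CPM. Nuclear respiratory chain genes had a median of 0.08 with 0 of 31 at 2-fold.

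Immune-related lists differed in direction, and most had members on both sides. Of 31 interferon response genes 5 were 2-fold higher in the knockout tumor and 4 in the parental tumor, with a median of -0.51. SAMD9L (2.12 and 17.9 CPM) and SAMD9 (7.09 and 20.4 CPM), neighboring antiviral genes, led on the knockout side. BST2 (18.4 and 2.71 CPM) and IFITM3 (24.5 and 4.99 CPM), membrane proteins that block virus release or entry, led on the parental side. Of 16 antigen presentation genes 14 had a ratio below 0 but only CD74, the chaperone of class II molecules, was 2-fold higher in the knockout tumor (0.572 and 17.9 CPM), and HLA-DMA in the parental tumor (5.15 and 1.41 CPM). HLA-B had 247.4 and 403.3 CPM. Reads of the class I genes may be split among close copies. NF-kB targets and chemokines went the other way, with a median of 0.38, 4 of 14 genes 2-fold higher in the parental tumor and 0 in the knockout tumor: the protease inhibitor SLPI (7.27 and 0.872 CPM), the chemokines CXCL1 (19.7 and 5.67 CPM) and CXCL2 (9.95 and 3.78 CPM), and the NF-kB inhibitor NFKBIA (66.5 and 30.9 CPM). Of 5 mucosal defense genes 3 were 2-fold higher in the parental tumor, SLPI again among them, and 1 in the knockout tumor, LYZ.

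Signaling and matrix genes included strong single members. Of 11 Notch pathway genes 8 had a ratio below 0, 2 were 2-fold higher in the parental tumor and 1 in the knockout tumor, with a median of -0.28. The receptor NOTCH1 had 236.0 CPM in the parental tumor and 50.4 CPM in the knockout tumor, 4.68-fold apart (4.37 to 5.01), and NRARP, a feedback target of Notch, had 54.7 and 18.2 CPM. NOTCH3 was higher in the knockout tumor (6.58 and 20.9 CPM) and HES1, the classical Notch target, was at 71.6 and 87.1 CPM. Of 19 BMP and TGF-beta genes 4 were 2-fold higher in the parental tumor, among them the ligand BMP7 (83.1 and 28.9 CPM) and the decoy receptor BAMBI (33.5 and 10.2 CPM), and 1 in the knockout tumor, the secreted TGFBI (81.1 and 377.8 CPM). Of 11 mesenchymal genes 5 were 2-fold higher in the parental tumor, with fibronectin FN1 at 58.5 and 10.8 CPM and the intermediate filament VIM at 122.5 and 33.3 CPM, and 1 in the knockout tumor, the protease MMP14 (5.84 and 27.7 CPM). Of 24 laminin, integrin and basement membrane genes 4 were 2-fold higher in the parental tumor, led by LAMA5 (381.5 and 166.0 CPM), and 0 in the knockout tumor. NTS, the gut peptide neurotensin, had 316.3 and 43.7 CPM and 1.17 CPM or less in the cultures.

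Beyond these lists the parental tumor held transcripts close to absent from the knockout tumor. COL3A1, a fibrillar collagen (ENSG00000168542.11, chr2:188974320-189012746), had 3841 counts (219.7 CPM) in the parental and 6 counts (0.291 CPM) in the knockout tumor, a ratio of 756 (347 to 2061). Both cultures had less than 1 CPM of it, 0.618 and 0.848. GSTP1, a detoxifying glutathione transferase (ENSG00000084207.14, chr11:67583595-67586656), had 2062 counts (118.0 CPM) and 2 counts (0.0969 CPM), a ratio of 1218 (337 to 10060), with 2.78 and 2.11 CPM in the cultures and 627.4 and 553.7 CPM in the LS174T tumors. The non-coding TPTEP1 had 711.4 CPM in the parental and 1.26 CPM in the knockout tumor, though the knockout culture still had 128.5 CPM of it. CALB1, the calcium-binding protein calbindin, had 636.0 and 4.21 CPM, with 58.6 and 57.9 CPM in culture, so the parental tumor was above and the knockout tumor below both cultures.

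In all, 29 genes had at least 5 CPM in the parental tumor and under 0.5 CPM in the knockout tumor, and 12 genes the reverse. Of the 29, 19 were below 1 CPM in both KM12 cultures and 6 reached 5 CPM in a KM12 culture, and 11 reached 5 CPM in both LS174T tumors. Of the 12, 5 were below 1 CPM in both KM12 cultures, 2 reached 5 CPM in a KM12 culture, and 6 reached 5 CPM in both LS174T tumors. With 0 counts in the knockout tumor, NPSR1, a neuropeptide receptor, was at least 185-fold higher in the parental tumor (26.8 CPM), CMBL, a hydrolase, at least 150-fold (21.9 CPM), and ASB4 at least 135-fold (19.6 CPM), each against a floor of 3 counts. CFTR, the chloride channel that cAMP opens in gut epithelium, had 236 counts (13.5 CPM) in the parental tumor and 1 count in the knockout tumor, a ratio of 278.7 with an interval of 49.5 to 11050. GLI2, the Hedgehog factor, and WNT11, a Wnt ligand, differ from those: the knockout culture had 23.4 CPM of GLI2 and 12.5 CPM of WNT11, and the knockout tumor 0.0969 and 0.291 CPM. Of the 12 genes on the knockout side CYP2B6, a drug-metabolizing cytochrome, had 0 counts in the parental tumor and 8.77 CPM in the knockout tumor, at least 51.1-fold higher against the same floor, and AOC1, the diamine oxidase of the gut, 1 count against 297, a ratio of 251.5 (44.8 to 9966).

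**Figure D3:**
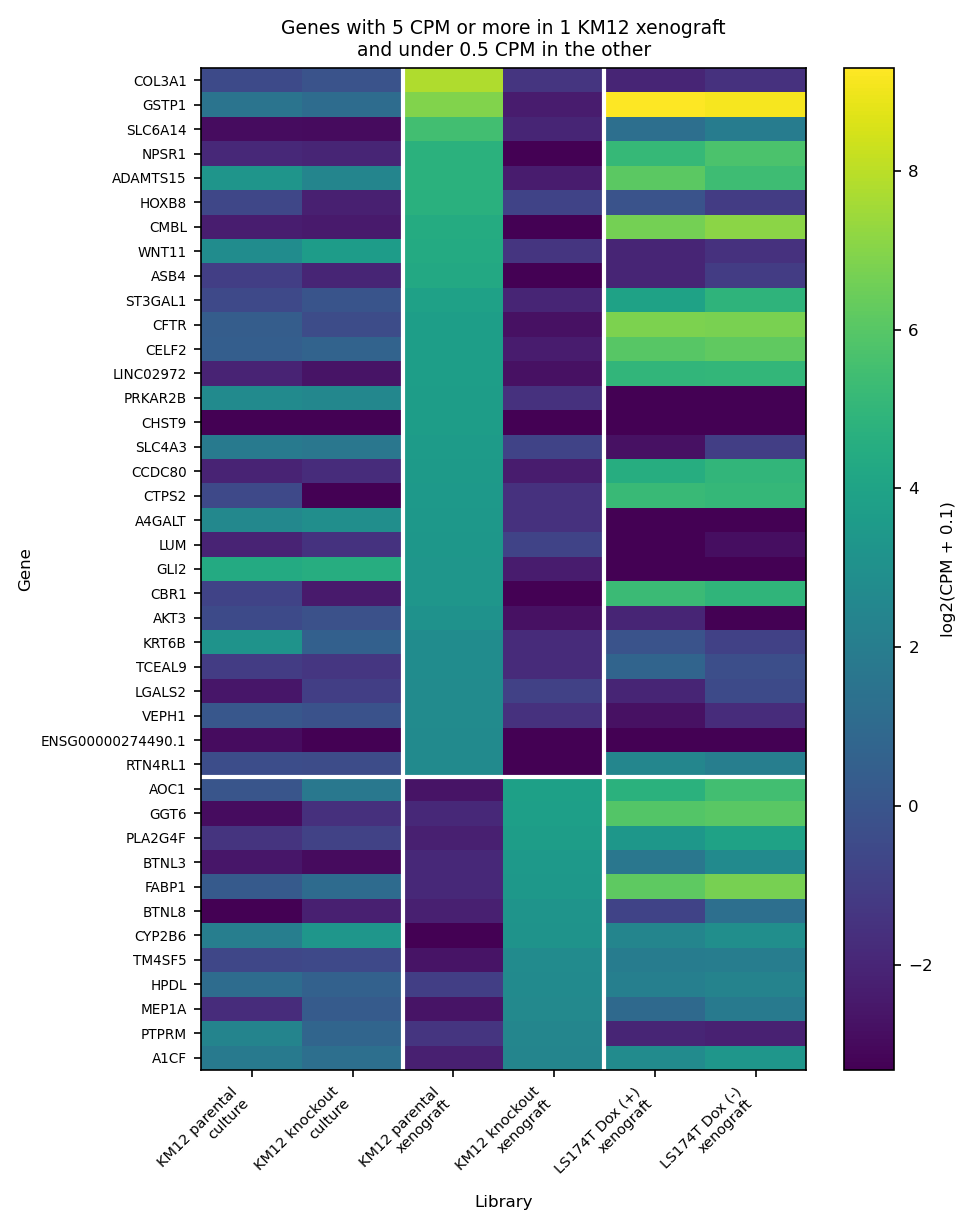
Rows are the 29 genes with at least 5 CPM in the parental KM12 xenograft and under 0.5 CPM in the knockout xenograft (above the horizontal white line) and the 12 genes of the reverse pattern, columns are 6 libraries, and color is log2 of CPM plus 0.1. The 2 KM12 xenograft columns differ in every row by choice of the genes; a reader should see that most rows are dark in both cultures and that 11 of the upper rows are bright in both LS174T xenografts.

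The 11 of the 29 and 6 of the 12 genes found in LS174T were not set against the share over all genes described. No link to that line can be read from them. Genes that separate the lines were also counted in the 2 KM12 tumors. There were 104 genes with at least 20 CPM in both LS174T xenografts and under 0.5 CPM in both KM12 cultures. In the parental KM12 tumor 5 of them reached 5 CPM and in the knockout tumor 2 did, and their medians were 0.0572 and 0.0484 CPM, against 37.4 CPM in LS174T. Most of these 104 genes, chosen as near absent from the KM12 cultures, were thus near 0 in both KM12 tumors.

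Markers of gut epithelium were present in both tumors, and defining markers of human stroma were few. All 10 colorectal epithelial markers reached 5 CPM, with KRT8 at 3375 CPM in the parental and 4054 CPM in the knockout tumor, and 4 of the 10 were 2-fold higher in the knockout tumor. The 16 fibroblast markers summed to 277.2 CPM in the parental and 19.3 CPM in the knockout tumor, and most of the first sum was COL3A1. All 4 of these markers that reached 5 CPM were 2-fold higher in the parental tumor: COL3A1, COL1A1 (29.2 and 7.07 CPM), LUM, the collagen-binding lumican (10.0 and 0.484 CPM), and COL6A1 (5.78 and 0.969 CPM). COL3A1, LUM and COL6A1 were under 5 CPM in the knockout tumor. They passed the filter through the parental tumor alone, which fixes their direction, while COL1A1 passed in both tumors. The share over all genes described was 4.34%. COL1A2, DCN and ACTA2 were each below 4 CPM in both tumors, and FAP and POSTN had 0 counts in both. The 14 endothelial markers summed to 9.27 and 6.39 CPM, with VWF, KDR, EMCN, ERG and ROBO4 at 0 counts in both. The 21 leukocyte markers summed to 247.8 and 768.9 CPM, nearly all of it LYZ, lysozyme, which KM12 also expressed in culture (266.6 and 311.4 CPM), and 8 of the 21, PTPRC among them, were at 0 counts. The 13 adipocyte, muscle and red cell markers summed to 13.5 and 3.88 CPM, mostly CFD. The part of mouse cells in COL3A1, COL1A1, LUM, FN1, VIM and the other matrix genes above was not tested.

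Neighboring genes on 2 chromosome arms shifted together, a pattern found by looking along the genome and given without a test. Among 10590 windows of 40 neighboring genes the median log2 ratio was below -0.5 in 90, 60 on chromosome 7 and 30 on chromosome 9, and the lowest was -0.83 and the highest 0.50. In culture the windows ranged from -0.12 to 0.14. On chromosome 7 the stretch from NRF1 to PTPRN2 (GRCh38 chr7:129611714-158587788) held 121 of the genes described. Their median was -0.53, 105 were lower in the parental tumor, 26 were at least 2-fold higher in the knockout tumor and 2 in the parental tumor, while the other 471 genes of the chromosome had a median of 0.03. On chromosome 9 the stretch from WASHC1 to DCAF12 (chr9:14521-34127399) held 69 genes with a median of -0.50, 59 of them lower in the parental tumor, 12 at least 2-fold higher in the knockout tumor and 1 in the parental tumor. The other 404 genes of chromosome 9 had a median of 0.04.

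Set against culture, the tumor with the larger shift differed between the stretches. For the chromosome 7 stretch the median log2 of knockout tumor over knockout culture was 0.43 and that of parental tumor over parental culture -0.15. The rest of the chromosome had 0.04 and 0.03, so both tumors moved, the knockout tumor further. For the chromosome 9 stretch the same values were -0.09 and -0.56, and for the rest of that chromosome -0.19 and -0.10. There the parental tumor stood further apart. The stretches hold 190 genes, 1.65% of those described, and 38 of the 525 genes higher in the knockout tumor (7.24%). Among them are INSIG1, the calcium channel TRPV6 (1.26 and 19.8 CPM) and AOC1, and without the 190 genes 498 and 487 genes were 2-fold apart. DNA copy number was not analysed here, and its part in these shifts was not tested.

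**Figure D4:**
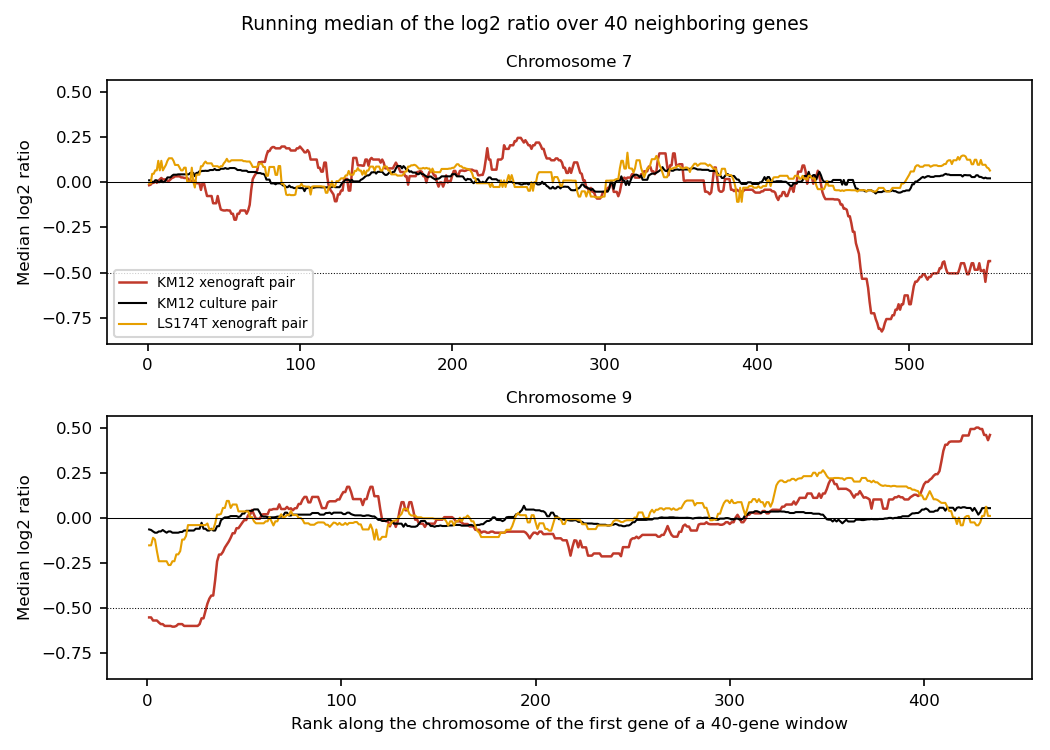
Lines show the median log2 ratio of parental over knockout CPM (for LS174T, Dox (+) over Dox (-)) in windows of 40 neighboring genes, in gene order along chromosomes 7 and 9, for the KM12 xenograft pair in red, the KM12 culture pair in black and the LS174T xenograft pair in orange. The red line drops below -0.5 at the end of chromosome 7 and at the start of chromosome 9, where the culture line stays between -0.12 and 0.14.

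The tumor pair and the culture pair of KM12 come from different libraries, and 27 genes were 2-fold apart in both. Of the 501 genes higher in the parental tumor 8 (1.6%) were also 2-fold higher in parental culture, which is 30.8% of the 26 genes called there, where 4.34% of all genes described were called in that direction in the tumors and 0.238% in culture. Of the 525 genes higher in the knockout tumor 12 (2.29%) were also 2-fold higher in knockout culture, 38.7% of the 31 called there, against 4.55% and 0.284% of all genes. Over the 10655 genes at 5 CPM in both pairs the log2 ratios had a Pearson correlation of 0.15, and 54.0% had the same sign. Genes are not independent replicates, and neither value carries a test.

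The 8 genes higher in parental libraries both times were MUC5B, KRT6B, A2ML1, PTGS2, PMEPA1, SMOC1, KCNJ2 and PCK1. SMOC1, a secreted matrix protein that binds BMPs, was steady with 277.5 and 83.6 CPM in the tumors and 302.6 and 99.9 CPM in culture. A2ML1, a secreted protease inhibitor, had 276.3 and 29.1 CPM in the tumors and 37.3 and 16.4 CPM in culture, and PMEPA1, a brake on TGF-beta signals, 55.9 and 12.6 CPM and then 60.7 and 29.3 CPM. The 12 on the knockout side were CYP2B6, KRT20, AKR1C1, SLC16A5, MERTK, APOBEC3C, PLXNA2, SDCBP2, GNG2, MYEOV, SAMD9 and SYTL2. AKR1C1, a steroid-reducing enzyme, had 4.63 and 34.4 CPM in the tumors and 3.91 and 8.80 CPM in culture. GNG2, a G protein gamma subunit, had 4.86 and 16.1 CPM in the tumors and 4.50 and 9.15 CPM in culture.

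In 7 genes the pairs pointed in opposite directions at 2-fold. MUC2, MUC5AC, LINC00261, MCTP1 and PTPRM were higher in the knockout tumor and in the parental culture, and HSPB1 and RASSF10 in the parental tumor and the knockout culture. Both cultures had less MUC5AC (705.8 and 304.6 CPM) than either tumor, and the parental cells led only in culture. RASSF10 had 16.0 and 3.39 CPM in the tumors and 1.51 and 6.67 CPM in culture.

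**Figure D5:**
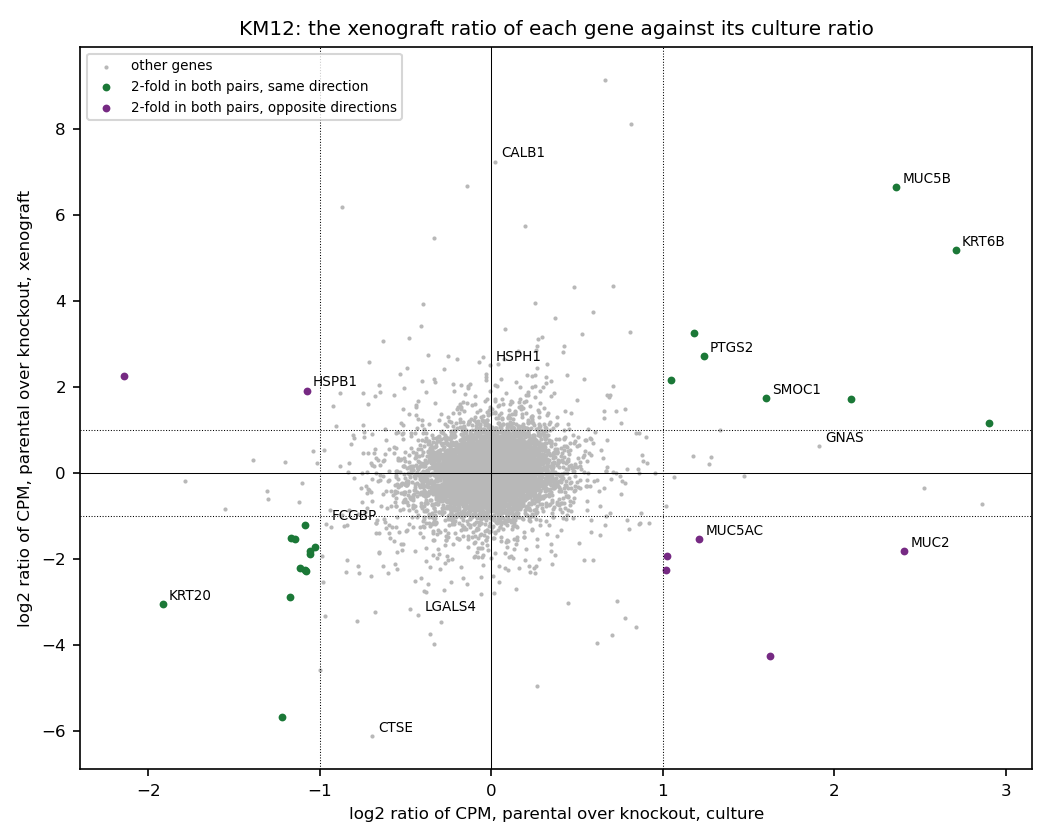
Each point is 1 of 10655 genes with at least 5 CPM in both KM12 pairs, with the log2 ratio of parental over knockout CPM in culture on the horizontal and in the xenografts on the vertical axis; green marks the 20 genes 2-fold apart in the same direction in both and purple the 7 in opposite directions. The cloud is taller than it is wide, and MUC2 and MUC5AC fall at the lower right.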

How the data were processed

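The authors deposited raw counts for human genes, made with HTSeq 0.11.0 from reads aligned with STAR 2.7.2b, per the submitters' processing notes, which name the builds hg38 and GRCm39. The annotation release, the strand setting and the treatment of mouse reads are not given in the sources used here, and the table has no mouse genes. RNA was captured with oligo(dT) and no step in the labels marks the strand, so antisense and overlapping genes are uncertain. Genes were named from GENCODE on GRCh38 by identifier (11503 of 11533 described genes, 99.7%).

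CPM used TMM factors (edgeR 4.0.16, R 4.3.3) from 16070 genes that reached 1 CPM in 2 or more of the 8 libraries, 1.10 for the parental and 1.11 for the knockout xenograft. Ratios carry exact 95% counting intervals (SciPy 1.17.1), checked on simulated counts. A gene with 0 counts in a library is given a bound from 3 counts. Named genes were GNAS, per direction the 25 protein-coding genes with the interval bound farthest from 1 and the 10 with the largest CPM difference, up to 6 per list, members that define a role and the 2 genes on each side of 5 CPM. The genes described and the 49 lists were chosen with earlier results of these data known. Genes both pairs share, chromosome stretches and HOX genes were chosen after their values were seen. DESeq2 1.42.0 size factors, other scalings, filters and a prior count were alternatives.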

Additional observations from a re-analysis of the deposited data

Results flagged for a closer look

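In 3 of the genes named by rule the KM12 xenograft pair and the KM12 culture pair were both at least 2-fold apart and in opposite directions. MUC5AC had a log2 ratio of parental over knockout of -1.54 in the xenografts and 1.21 in culture. MUC2, the neighboring gel-forming mucin, had -1.82 and 2.41, from 205.0 and 721.5 CPM in the xenografts and 28.2 and 5.32 CPM in culture. HSPB1, a small heat shock protein, had 1.91 and -1.08, from 440.8 and 117.4 CPM in the xenografts and 73.4 and 154.8 CPM in culture. With 1 library a group the difference between the pairs was not tested.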

How the results depend on the processing

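No paired analysis was possible because each group has 1 library and the labels give no shared replicate numbers, and for the same reason no library could be left out. Of the 302 named gene ratios in this check 0 were counted as reversed under the scalings and the prior count tried. Genes near level, such as PRKACA and CLDN4, can still change sign, since other scalings shifted the median log2 ratio by up to -0.064. Of all values for single genes and lists 1991 stayed close and 101 moved beyond their counting interval (or, for counts in a list, beyond the margin set for counts). The number of genes at 2-fold depended on the filter for low values, since the filter sets how many genes enter: 1255 toward the parental and 957 toward the knockout tumor at 1 CPM in either library, 249 and 298 at 5 CPM in both, 231 and 278 at 20 CPM in either, and 7169 and 4981 with no filter, where ratios rest on few counts. With the whole counting interval beyond 2-fold 320 and 358 remained. Other scalings gave 434 to 547 genes toward the parental and 548 to 587 toward the knockout tumor, and the parental share of calls was 42.5% to 49.3%. The lowest share, and 434 and 587 genes, came from TMM factors over all genes without a filter, an alternative added after seeing the data. The GNAS ratio was 1.507 with DESeq2 size factors and with TMM over the 2 xenografts, and 1.472 with TMM over all genes. The medians of the lists for endoplasmic reticulum chaperones, ATF4 targets, ERK output, mitochondrial transcripts and ribosome biogenesis changed sign with the scaling. At 5 CPM a tumor has 87 or 103 counts, so ratios against a tumor with 1 to 10 counts have wide intervals.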
